A study of Homo sapiens with 6 samples.

Results

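BCAT1 (ENSG00000060982), which encodes the cytosolic branched-chain amino acid aminotransferase, is described here as 1 of the 995 genes in a deposited expression table. It was chosen by its own difference between the groups of this table, so its values are given as a description, with no p-value, although it was part of the fit over the whole table. The libraries, 3 control and 3 shSTYK1, hold poly(A)-selected RNA of PANC-1, an established line from a human carcinoma of the pancreatic duct. The shSTYK1 cells carry a lentiviral pLKO.1-puro short hairpin RNA against STYK1, a transmembrane kinase also named NOK, whereas the labels do not name the construct of the control cells. According to the study's methods, transduced cells were kept under puromycin and/or G418 for several weeks and resistant clones were expanded. Whether the sequenced cells are 1 clone, and which of the 2 STYK1 hairpins they carry, is not stated. The study sequenced these cells to ask which transcripts differ after STYK1 depletion.

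BCAT1 and its mitochondrial partner BCAT2 catalyse the same reversible step. They move the amino group of leucine, isoleucine or valine onto 2-oxoglutarate, which gives a branched-chain 2-oxoacid and glutamate. The branched-chain 2-oxoacid dehydrogenase complex (BCKDHA, BCKDHB, DBT and DLD), which the kinase BCKDK inhibits, then commits the carbon skeleton to breakdown in the mitochondrion, and IVD carries out the next step for leucine. BCAT1 is low in most adult tissues and is expressed in several carcinomas, in stromal fibroblasts and in the brain.

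In the GENCODE 29 annotation (GRCh38), BCAT1 spans bases 24810022 to 24949459 of chromosome 12, is read from the minus strand, and has 10 transcripts, of which 6 are protein-coding. The transcript BCAT1-201 has 11 exons and 386 coding codons. Of the coding transcripts, 4 start between 24949043 and 24949459 and the other 2 start between 24902296 and 24903075, which is 46.0 kb downstream. The table gives 1 row per gene, so the starts cannot be told apart in it. On the plus strand, 3 gene models overlap BCAT1 (AC023796.2, AC026310.3 and AC026310.2). None of the 3 is in the table, and whether reads were counted by strand is not stated, so their reads cannot be told apart from those of BCAT1.

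The hairpin target sites are shown because the hairpin is what separates the groups by label, and the capitals mark the longest run that each site shares with any BCAT1 transcript. Both sites are 21 bases long and are written in the sense direction.
STYK1 shRNA 1: caAGTATATCacatcggaaag
STYK1 shRNA 2: GCCCATCTttcgagccaatat
The longest shared run is 8 bases for either site, and neither site is found whole in any of the 10 BCAT1 transcripts. Site 1 is found whole in 2 of 6 STYK1 transcripts of GENCODE 29 and site 2 in 1 of 6. Only exact matches in the sense direction were searched.

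A pair of short stretches at the BCAT1 start is shown because each holds a motif of factors that have been linked to BCAT1 or to amino acid supply. They come from 1 of the 5 RefSeq promoter windows of the gene (GRCh38.p14, 250 bases before to 50 bases after a start), are written 5′ to 3′ on the minus strand, and carry the motif in capitals.
Amino acid response element, chr12:24949130-24949159: gtcttcctgcTGATGCAATccgctaggtcg
E box, chr12:24949068-24949097: tccagcccgcCACGTGtactcgccgccgcc
The first motif, TGATGNAAT, is the form of the C/EBP-ATF site that ATF4 binds, and it begins 48 bases before the start of its window. The second, CACGTG, is the E box bound by MYC and related factors, and it lies just after that start. Each also lies in an exon, within the UTR, of 1 GENCODE transcript that starts further upstream. On either strand, TGATGNAAT is in 0.991% and CACGTG in 7.26% of the 35116 RefSeq windows of this length. The TCF/LEF motif ATCAAAG, in 2.62% of windows, and the cyclic AMP element TGACGTCA, in 1.85%, have no match in the window shown. The motifs were chosen after the sequence was seen. ATF4, MYC and STYK1 itself are not in the table, so none of their transcripts is described here. The depletion of STYK1 was therefore not checked in these libraries. The study reports its efficiency separately, in PANC-1 cells with stable STYK1 hairpins.

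BCAT1 was higher in each of the 3 control libraries than in any of the 3 shSTYK1 libraries. The deposited values are z-scores, which set every gene to the same mean (0) and the same SD (1) across the 6 libraries. For BCAT1 they were 1.10, 0.71 and 1.15 in control 1 to 3, and -0.91, -1.09 and -0.97 in shSTYK1 1 to 3. A z-score shows the order and the relative spacing of the libraries but neither the level nor the fold change. The expression values behind the scores were therefore recovered with a search over numbers of 2 decimals for those that, after adding 1, taking the logarithm and standardising, return the scores. Their unit is not stated, so they cannot be compared between genes.

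The recovered BCAT1 values were 4.15, 2.92 and 4.36 in control 1 to 3, with a mean of 3.81 ± 0.778 (SD, n = 3). In shSTYK1 1 to 3 they were 0.24, 0.09 and 0.19, with a mean of 0.173 ± 0.0764 (SD, n = 3). The groups did not overlap, and replicate 2 was the lowest library in either group. The lowest control library was 12.2 times the highest shSTYK1 library. Relative to the mean, the spread was 20.4% (coefficient of variation) in control cells and 44.1% in shSTYK1 cells.

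**Figure D1:**
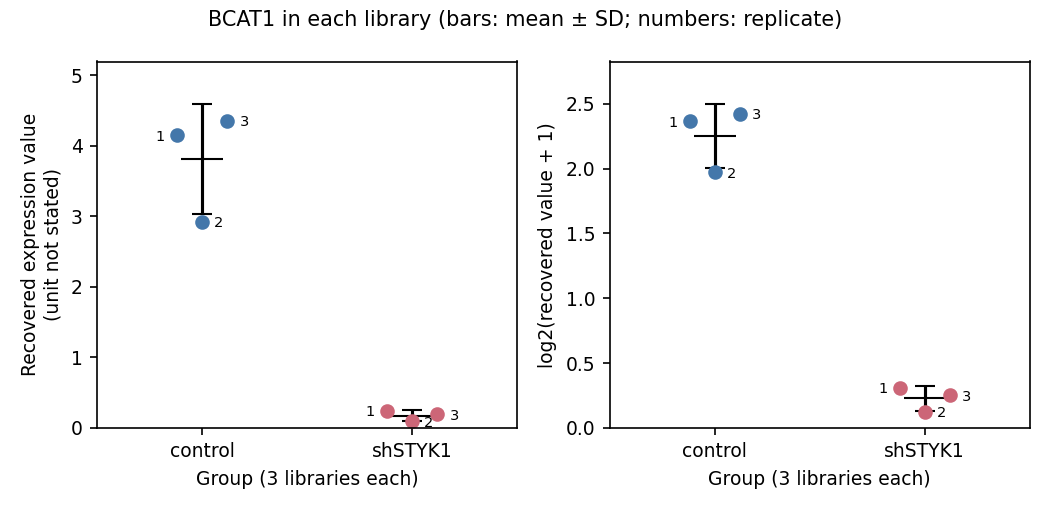
Recovered BCAT1 expression values (left, unit not stated) and log2(value + 1) (right) in the 3 control and 3 shSTYK1 libraries. Points are libraries with their replicate number, and bars give the mean ± SD. The control libraries lie between 2.92 and 4.36 and the shSTYK1 libraries between 0.09 and 0.24.

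On the log2(value + 1) scale, BCAT1 was lower in shSTYK1 than in control cells by a difference of -2.02 (SE 0.15, limma, n = 3 per group). This scale understates the fold of a low gene. The ratio of the group means was 22.0. Multiplying value + 1 by a whole number leaves the z-scores as they are, so this ratio rests on the smallest solution of the search, and the next solution (value + 1 doubled, chosen after seeing the data) gives 6.40. The ratio of the lowest control to the highest shSTYK1 library likewise becomes 4.62. The coefficients of variation become 18.0% in control and 11.3% in shSTYK1 cells, in the reverse order, so which group varied more relative to its mean is not settled. The log2 difference of value + 1 is the same under both. In the smallest solution, which was used throughout, all 3 shSTYK1 values were below 1. There the control values carried BCAT1 past the filter on low values (at least 1 in at least 3 libraries).

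The table was already selected by its authors, and most of its genes differ between the groups. Its 995 genes are as many as the study called lower or higher after STYK1 depletion (p under 0.05). If they are the same genes, low adjusted p-values from the same libraries were largely fixed in advance. Those given here and below describe the differences and are no further support for them. As for BCAT1, no library of one group fell within the range of the other in 93.7% of all 995 genes. Of the 740 genes past the filter, 95.7% had an adjusted p under 0.05 (limma with Benjamini-Hochberg adjustment), 44.5% as lower and 51.2% as higher in shSTYK1. The median log2 difference of the genes tested was 0.54, so the BCAT1 difference and that of the middle of the table have opposite signs. Dividing the libraries by median-of-ratios size factors, which ran from 0.807 to 0.950 in control and from 1.20 to 1.29 in shSTYK1 libraries, lowered this median to 0.20 and put the BCAT1 difference at -2.25. Such factors assume that most genes do not differ, which this selected table does not meet. They split by group, so the rescaling may remove part of the group difference itself, here and below. The balance of calls turned with the rescaling, from 329 lower and 379 higher to 333 lower and 266 higher genes. It also turned without the filter (460 lower and 455 higher) and on the deposited z-scores of all genes (484 lower and 465 higher).

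BCAT1 ranked 36 of 740 from the most negative log2 difference, among 338 genes with a lower mean in shSTYK1. Its residual SD was 0.19 log2 units against a median of 0.20 over the genes tested. The genes just above it were COL7A1 (-2.12), the type VII collagen of anchoring fibrils, MYO1D (-2.07), an unconventional myosin, and ANKRD1 (-2.06), a target of YAP and TEAD. The genes just below were SERINC2 (-2.01), MTUS1 (-1.98) and UPK1B (-1.98), a uroplakin. These 6 differ from BCAT1 by less than its SE of 0.15, so the order among these neighbours is not resolved on this scale. MYO1D and UPK1B, like BCAT1, had all shSTYK1 values below 1 and passed the filter only through the control libraries.

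Neither the partner enzyme nor the next steps of the pathway are in the table. BCAT2, BCKDHA, BCKDHB, BCKDK, DBT and IVD (0 of 6) were found neither by symbol nor by Ensembl identifier, so their level and direction are not analysed here. Because the table holds selected genes, a gene's absence from it gives no value for that gene, and it does not show that the gene did not change. Around BCAT1, 159 genes of branched-chain amino acid use and its surroundings were listed. Besides BCAT1, 12 of them are in the table, of which 7 have a lower and 5 a higher mean z-score in shSTYK1. Of the 8 past the filter, 4 fell and 4 rose, shares close to the 44.5% and 51.2% of all genes tested. Their median log2 difference was 0.01, against 0.54 over all genes tested, and with 4 members in either direction it lies between the groups and says nothing of the list.

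In the downstream breakdown of leucine, isoleucine and valine, 2 of 39 listed genes are in the table. AOX1, an aldehyde oxidase that pathway charts place in valine breakdown, was 3.19, 1.79 and 2.55 in control 1 to 3 and 1.46, 0.34 and 1.01 in shSTYK1 1 to 3. It fell by 0.88 on the log2 scale (SE 0.25, limma adjusted p = 0.00854; -1.48 with a pseudocount of 0.1), a smaller difference than that of BCAT1, with no overlap between the groups. ALDH2, the mitochondrial aldehyde dehydrogenase, was between 0.25 and 0.35 in control and between 0.90 and 1.34 in shSTYK1 libraries and was below the filter. The complex itself has 0 of 6 listed genes in the table, its kinase and phosphatase included.

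Among transporters of branched-chain amino and keto acids, 2 of 22 are in the table and both had lower means in shSTYK1. SLC43A2 (LAT4), which carries leucine, isoleucine, valine, phenylalanine and methionine by facilitated diffusion, was 8.30, 10.53 and 6.55 in control 1 to 3 and 2.64, 4.51 and 2.83 in shSTYK1 1 to 3. It fell by 1.13 on the log2 scale (SE 0.21, limma adjusted p = 0.00123). Unlike BCAT1, its highest library in either group was replicate 2. SLC6A15, a sodium-dependent transporter of neutral amino acids, was between 0.68 and 1.00 in control libraries and was below the filter. In shSTYK1 1 to 3 it was recovered as 0, 0.02 and 0, in the smallest solution.

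The other product of the BCAT1 reaction is glutamate, and 4 of 41 listed genes of glutamate and amino group transfer are in the table. SLC7A11, which exports glutamate in exchange for cystine, was 5.80, 4.76 and 6.91 in control 1 to 3 and 19.92, 15.05 and 21.13 in shSTYK1 1 to 3. It rose by 1.53 on the log2 scale (SE 0.18, limma adjusted p = 0.000127), opposite in direction to BCAT1. ASS1, the argininosuccinate synthase that takes up an amino group by way of aspartate, also rose, by 1.25 (SE 0.25, limma adjusted p = 0.00152), or by 0.79 after median-of-ratios rescaling (limma adjusted p = 0.0252). GAD1, which turns glutamate into GABA, fell by 1.14 (SE 0.17, limma adjusted p = 0.000442). GLUL, the glutamine synthetase, was 2.21, 0.62 and 1.30 in control 1 to 3 and 0.36, 0.20 and 0.09 in shSTYK1 1 to 3, and was below the filter. Its lowest control library was again replicate 2.

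Leucine is sensed upstream of mTORC1, and 2 of 29 listed genes of that branch are in the table. RRAGD, a Rag GTPase that recruits mTORC1 to the lysosome, was 0.65, 0.98 and 0.48 in control 1 to 3 and 4.26, 2.26 and 2.97 in shSTYK1 1 to 3. The log2 difference was 1.27 (SE 0.20). RRAGD passed the filter only through its shSTYK1 libraries, since all 3 control values were below 1, so it had to differ and its p is not given, although it is 1 of the 4 counted as higher. SESN3, of the sestrin family, was between 0.04 and 0.22 in all 6 libraries and was below the filter.

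Of 20 listed genes linked to BCAT1 in the literature, transcription and chromatin regulators among them, 2 are in the table and they moved in opposite directions. HIF1A, the hypoxia-inducible factor 1 alpha, was 43.47, 41.68 and 47.21 in control 1 to 3 and 90.17, 72.09 and 89.12 in shSTYK1 1 to 3. It rose by 0.90 on the log2 scale (SE 0.14, limma adjusted p = 0.000409). After median-of-ratios rescaling the difference was 0.36 and close to the threshold (limma adjusted p = 0.0498). EPAS1, which encodes HIF-2 alpha, was 7.21, 9.03 and 7.29 in control and 2.31, 2.44 and 3.02 in shSTYK1 libraries, and fell by 1.30 (SE 0.14, limma adjusted p = 9.86e-05). Their proteins were not measured in this table.

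**Figure D2:**
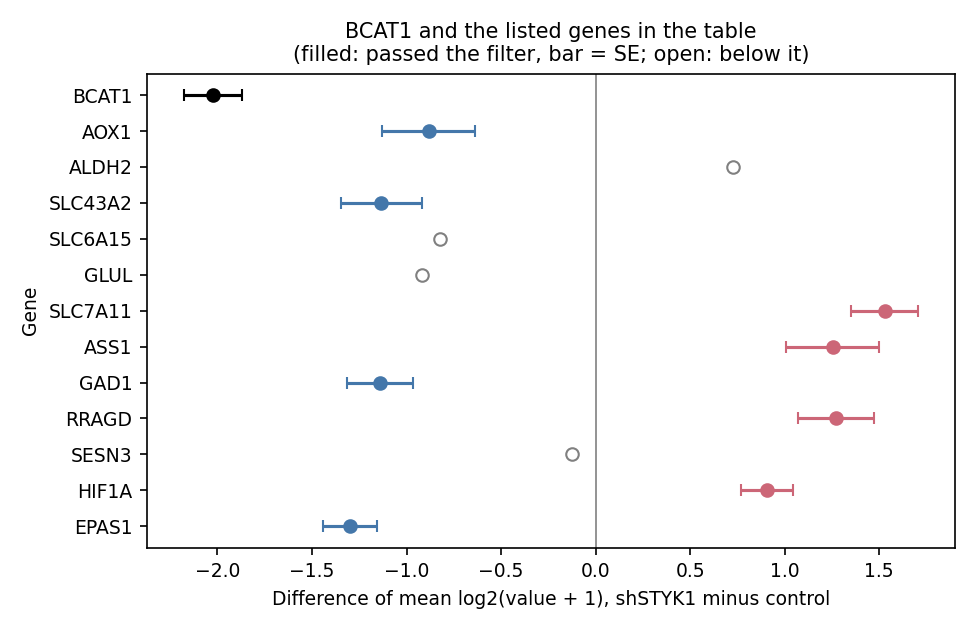
Difference of mean log2(value + 1), shSTYK1 minus control, of BCAT1 and the 12 listed genes in the table, from aldehyde metabolism at the top to transcription regulators at the bottom. Filled points passed the filter and carry their SE, open points were below it, and the BCAT1 difference of -2.02 lies furthest from 0 of the 13.

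The genes whose z-scores ran most like those of BCAT1 over the 6 libraries were MTUS1, a microtubule-associated protein, TBX18, a T-box transcription factor, the non-coding RNA HCG11, VGLL3, a cofactor of TEAD factors, BCL2A1, an anti-apoptotic BCL2 relative, and LRRCC1, a centrosomal protein. As the measure of likeness, Pearson's r with BCAT1 lay between 0.997 and 0.998. The measure separates genes poorly, since all 6 libraries fall into the 2 groups: 244 of the 739 other genes tested have r over 0.9 with BCAT1 and 287 have r under -0.9. What the 6 share with BCAT1 beyond the group difference is control 2 as the lowest control library, in 6 of 6. That pattern is found in 85 of the 338 tested genes with a lower mean in shSTYK1, and the likeness to BCAT1 itself selects for it.

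MTUS1 was 8.39, 6.76 and 8.65 in control 1 to 3 and 1.44, 0.97 and 1.37 in shSTYK1 1 to 3. TBX18 was 4.01, 3.07 and 4.00 in control libraries and was recovered as 0 in all 3 shSTYK1 libraries, in the smallest solution. BCL2A1 was 19.83, 15.19 and 22.29 in control and 5.68, 4.39 and 5.42 in shSTYK1 libraries. Like BCAT1, MTUS1 and BCL2A1 had replicate 2 as the lowest library of both groups. TBX18, HCG11 and VGLL3 had all shSTYK1 values below 1, as BCAT1 did, and passed the filter only through the control libraries. The genes most opposite to BCAT1 were PTGS1, the cyclooxygenase 1, PLAU, the urokinase, and DKK3, of the Dickkopf family, each with r of -0.997. Their log2 differences were 1.12, 1.04 and 1.06, or 0.89, 0.49 and 0.52 after median-of-ratios rescaling, and PTGS1 passed the filter only through its shSTYK1 libraries. RefSeq promoter windows exist for 4 of the 6 similar genes, and 0 of these 4 hold any of the 4 motifs searched.

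Along chromosome 12, the nearest other gene of the table that the annotation locates is 3.01 Mb from BCAT1. It is PTHLH on the upstream side, which encodes the parathyroid hormone-related protein, followed by PKP2 (7.84 Mb away), a desmosomal plakophilin. They fell by 1.50 and 1.29 on the log2 scale, each by less than BCAT1. The third on that side, TUBA1B-AS1, lies 24.2 Mb away and fell by 1.30 (limma adjusted p = 0.00163), with the limit that an antisense RNA counted without strand cannot be told apart from its partner gene. On the downstream side, SLCO1B3, an organic anion transporter 3.89 Mb away, had a log2 difference of 1.05 (limma adjusted p = 0.00680), which did not pass the threshold after median-of-ratios rescaling (0.61, limma adjusted p = 0.0610). MGST1, a microsomal glutathione transferase 8.20 Mb away, fell by 2.94, a more negative difference than that of BCAT1.

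Among the 42 tested genes of chromosome 12 other than BCAT1, 20 had a lower and 22 a higher mean in shSTYK1. Of the 42, 16 were called lower and 21 higher (limma adjusted p under 0.05). Over all genes tested, the shares called were 44.5% lower and 51.2% higher. The median log2 difference was 0.37 on chromosome 12 and 0.54 over all genes tested. After median-of-ratios rescaling the balance of calls turned, as in the whole table, to 17 lower and 12 higher genes. Copy number was not measured.

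The cell type of the libraries was not settled here, because few of the markers listed are in the table. Of 29 markers of pancreatic epithelium, acinar, endocrine, fibroblast, endothelial and white blood cells, 2 are in it. CDH1, the E-cadherin of epithelial cells, was 0.10, 0.27 and 0.28 in control and 0.94, 0.85 and 0.90 in shSTYK1 libraries, and was below the filter. COL1A1, a collagen of fibroblasts that carcinoma lines can also express, was 26.73, 42.24 and 22.24 in control 1 to 3 and 3.12, 3.73 and 2.94 in shSTYK1 1 to 3. It fell by 2.83 on the log2 scale (limma adjusted p = 2.61e-05), together with BCAT1. Its part in the BCAT1 difference was not tested. XIST, which is not among the 29 markers, was 3.28, 4.29 and 3.76 in control 1 to 3. In shSTYK1 1 to 3 it was 0, 0.19 and 0, so it passed the filter only through the control libraries. What genes outside the marker list say of the identity of the cells was not tested. In bulk RNA, fewer cells that express BCAT1 and less BCAT1 RNA per cell cannot be told apart.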

How the data were processed

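Total RNA of PANC-1 cells was poly(A)-selected, and libraries were sequenced in paired reads, with 3 biological replicates per group according to the labels and the study's methods. The submitters' processing notes name RSEM, DESeq2 and the builds GRCh38 and hg38, without versions or roles. The authors standardised the expression of 995 selected genes, and the deposited values are 1 score per gene and library, a z-score with 12 significant digits. Depth, expression unit and normalization are not given in the sources used here, and counting intervals or floors could not be derived.

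Sample titles gave the groups. BCAT1 and the gene lists were chosen with earlier results of these data known. A whole-number search recovered, for 994 genes, expression values of 2 decimals that return the scores after log(value + 1) and standardising (value + 1 up to 2000, Python 3.11.15, numpy 2.4.6, numba 0.67.0). The solutions matched the deposited z-scores within 5e-12, and the smallest was used. On simulated data, 100 of 100 genes were recovered exactly, and none of 20 genes with unrounded values gave a solution. Groups were compared with limma 3.58.1 (lmFit, eBayes; R 4.3.3) on log2(value + 1), with Benjamini-Hochberg adjustment and a threshold of 0.05, in the 740 genes that reached 1 in 3 or more libraries. Tested on simulated data, this fit called 191 of 200 changed genes and 6 of 540 unchanged ones. The simulation left most genes unchanged and selected none, unlike this table, so these counts do not carry over to the adjusted p-values given here. Samples that share a replicate number did not deviate together. Named genes were BCAT1, listed genes in the table, the 6 most similar and 3 most opposite genes by Pearson's r, the 3 genes on either side of BCAT1 in the order, and up to 3 on either side on chromosome 12, of which 1 on the downstream side is not reported here. Median-of-ratios values of genes outside the lists were added after seeing the data. GENCODE 29 located 965 genes. Plots were drawn with matplotlib 3.10.9, and tables joined with pandas 2.3.3. Alternatives were other pseudocounts, scalings and filters, the z-scores themselves, trend and robust estimation, a replicate block and each library left out.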

Additional observations from a re-analysis of the deposited data

How the results depend on the processing

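BCAT1 was lower in shSTYK1 under each alternative for which its difference is given here. It was chosen on this contrast and its groups do not overlap, so its direction could hardly turn and is no support. Its log2 difference of -2.02 became -3.86 with a pseudocount of 0.1, -2.25 after median-of-ratios rescaling, -1.79 after quantile normalization and -4.46 as the log2 ratio of the group means, and it lay between -2.16 and -1.94 with each library left out in turn. The log2 ratio of the group means became -2.68 with the next larger solution of the search, an alternative chosen after seeing the data. By construction, a smaller added constant and a ratio of unshifted means weigh low values more. For the scalings the cause was not tested. Counts over the table were 329 lower and 379 higher genes, and 130 lower and 194 higher with a filter of at least 5, which leaves fewer genes and not BCAT1. With median-of-ratios rescaling they were 333 and 266. Replicate numbers did not pair the samples (r of -0.22, 0.19 and 0.048 for replicates 1, 2 and 3), and a fit with the replicate block gave 329 lower and 385 higher genes. With every replicate number in both groups, the block cannot move a difference, so that of BCAT1 stayed at -2.02. For the 8 listed genes tested, 94 of 94 alternatives kept the direction and the side of the threshold. AOX1 and RRAGD are not among those with the filter of at least 5. The z-scores and the trend and robust fit were read only as counts over the table. These genes come from a selected table, and RRAGD had to differ, so this agreement is no support for them. The 3 libraries per group, the unknown depth and the low shSTYK1 values, where 0.01 is the smallest step, limit the precision of the BCAT1 ratio. For 1 gene, 3 against 3 libraries give an exact two-sided permutation p of 0.1 at the smallest.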
